A study of Mus musculus with 7 samples.

Results

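SOX transcription factors of the embryonic gut were followed through colon development in the mouse as 10 named genes, Sox2, Sox4, Sox5, Sox6, Sox7, Sox11, Sox12, Sox13, Sox17 and Sox18. They were taken by name with no cut on their values, though earlier results of these data were known. All 10 were measured, among 18194 genes in all, by 35 of the 34958 probe sets that name a single gene. The tissue was colon of inbred C57BL/6 mice with no treatment and no altered allele, taken at 6 embryonic stages a day apart, the first E13.5 (embryonic day) and the last E18.5, and once at 8 weeks after birth, here the adult. Each stage had 1 array of total RNA, and whether the RNA of several animals was pooled is not given in the sources used here.

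SOX proteins bind DNA through an HMG box related to that of the sex-determining factor SRY, and they bend the DNA and act with partner factors. The SoxB1 protein SOX2 keeps progenitors undifferentiated in the nervous system and marks the foregut. The SoxC proteins SOX4, SOX11 and SOX12 are activators of immature neural and mesenchymal cells, the SoxD proteins SOX5, SOX6 and SOX13 lack a known activation domain and work beside other SOX proteins, for example in cartilage, and the SoxF proteins SOX7, SOX17 and SOX18 act in endothelium.

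Levels are log2 values, so that a difference of 1 is a 2-fold change, and a gene's level is the median over its probe sets. Because no stage had a replicate, the error came from the spread of the 6 embryonic arrays around a straight line. limma fitted the slope of that line per embryonic day and the adult difference, which is the adult level minus the level fitted at E18.5, with 4 residual degrees of freedom. A slope was called where the adjusted p fell under 0.05, and an adult difference had to reach 1 on the log2 scale as well. The adult difference rests on 1 array that was assumed to vary like the embryonic ones, and p-values measure only the spread between these arrays. The median level over all genes lay between 6.07 and 6.14 on the embryonic arrays and at 6.17 on the adult array. The adult RNA stood apart in its control probe sets, where 5′ minus 3′ gave -2.41 for Gapdh, with embryonic values of -1.59 to -1.29, and -2.66 for Actb, with embryonic values of -2.14 to -1.96. The part of these RNA control values in the adult differences was not tested. Among the epithelial genes, Cdh1, the cadherin of epithelial junctions, rose over the embryonic days from 10.69 to 11.57 and Cdx2, the intestinal homeobox factor, from 8.58 to 9.03. These genes mark epithelium and intestine, so they do not tell colon from other intestine, and the colon label itself was not tested.

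Of the 10 SOX genes, Sox11 and Sox4 fell over the embryonic days, none rose and 8 had no call in limma. Over all genes, 10.4% fell and 9.12% rose. In the adult, Sox11 and Sox7 were lower than the level fitted at E18.5 and none was higher, against 3.26% lower and 4.23% higher over all genes. At an unadjusted p under 0.05, 1 of the 10 had a rising slope, which was Sox13, and 0 were higher by 1 or more in the adult. The median slope of the 10 was -0.03 per day against 0.00087 over all genes, and their median adult difference was -0.23 against 0.03. Counted by probe set, 11 of the 35 fell (background 9.55%), 0 rose (background 7.24%, and 1 at an unadjusted p under 0.05), 8 were lower in the adult (background 4.21%) and 0 were higher (background 3.94%, and 0 at an unadjusted p with the 2-fold limit). All 11 that fell belonged to Sox4 and Sox11. These shares are a description of 10 chosen genes and no test of the family. In whole colon RNA, fewer cells of a type and less RNA per cell cannot be told apart, and this holds for every level given here.

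**Figure D1:**
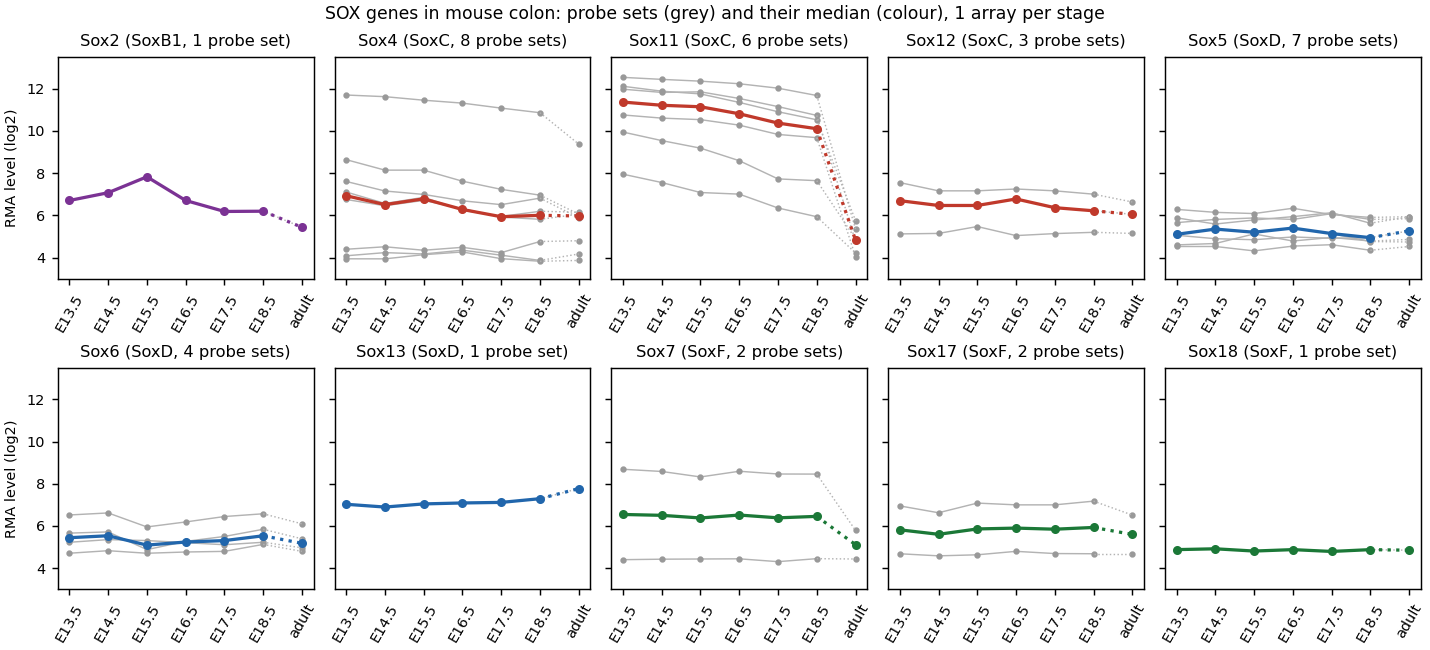
Level (log2) of each SOX gene at the 7 stages, with 1 array per stage, single probe sets in grey and their median in colour (a gene with 1 probe set shows only the coloured line). Sox11 ran from 11.37 down to 10.11 in the embryo and lay at 4.83 in the adult, while Sox18 stayed between 4.79 and 4.92.

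**Figure D2:**
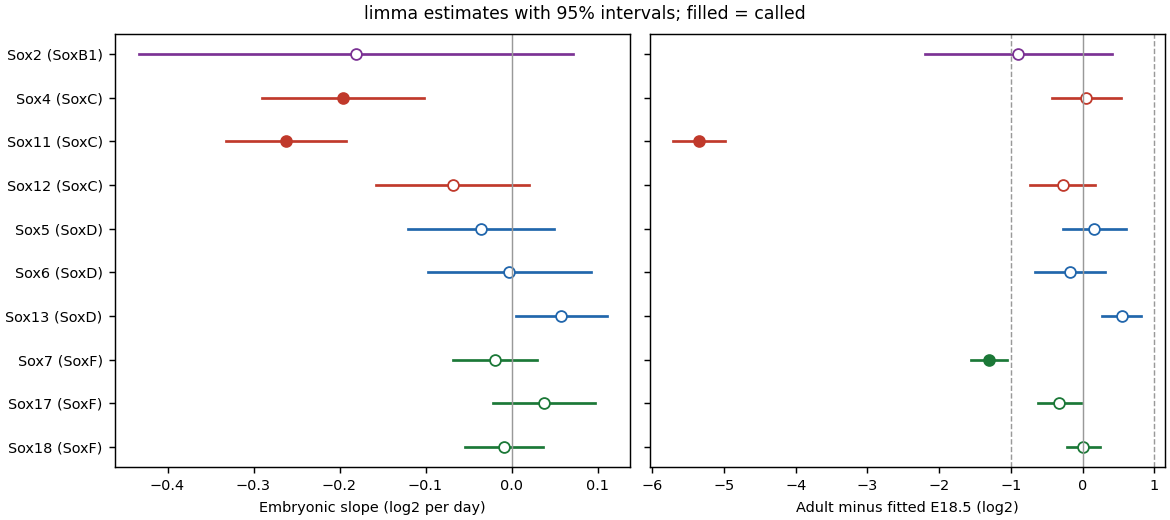
limma estimate and 95% interval for each SOX gene, with the embryonic slope (log2 per day) on the left and the adult level minus the level fitted at E18.5 (log2) on the right. Filled points were called, which were Sox4 and Sox11 for the slope and Sox11 and Sox7 for the adult difference, and the dashed lines mark a 2-fold difference.

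Sox11, a SoxC activator known from immature neurons and embryonic mesenchyme, changed most among the 10. Its level, day by day in the embryo, was 11.37, 11.22, 11.14, 10.81, 10.37 and 10.11, and in the adult it was 4.83. Every stage was lower than the one before, the 3 steps after E15.5 were larger than the 2 before it, and the step from E18.5 to the adult was larger than all of them together. Sox11 and Sox7 were the only ones of the 10 to lie 2-fold lower on the adult array than on the E18.5 array, as 3.84% of all genes did. The slope was -0.26 per day (SE 0.03, adjusted p = 0.00258 in limma). The adult difference was -5.35 (SE 0.15, 95% interval -5.71 to -4.99, limma adjusted p = 6.86e-06), a 40.8-fold lower level, and it was the lowest adult difference of all 18194 genes. In the fits without 1 embryonic array it was the lowest or the second lowest gene, with differences between -5.43 and -5.30. The adult value lay below 5.12, the level under which the dimmest 25% of genes fall by their mean, so the fold rests on a dim adult signal. The slope was lower for 193 other genes.

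The 6 probe sets of Sox11 were each called in both comparisons in the fit over probe sets. Their slopes ran from -0.50 to -0.16 per day (limma adjusted p = 0.00148 to 0.00871) and their adult differences from -6.46 to -1.78 (adjusted p = 5.48e-06 to 0.000602). The brightest probe set stood at 12.54, 12.44, 12.36, 12.24, 12.03 and 11.68 over the embryonic days and at 5.35 in the adult. The dimmest stood at 7.95, 7.55, 7.08, 7.01, 6.35 and 5.93 and at 4.22. The bright probe set had the smallest slope and the largest adult difference, whereas in the adult the 6 probe sets had come together between 4.05 and 5.75.

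Sox4, the SoxC factor with roles in progenitor survival and in heart and lymphocyte development, had a median level of 6.93, 6.51, 6.78, 6.28, 5.93 and 6.00 over the embryonic days and of 5.97 in the adult. The level was high on the first 3 arrays and low on the last 3, the adult included. The slope was -0.20 per day (SE 0.04, limma adjusted p = 0.0164). The call was lost in 3 of the 6 fits without 1 array while the slope kept its size. Leaving out E13.5 gave a slope of -0.19 (adjusted p = 0.0991), leaving out E17.5 gave -0.17 (adjusted p = 0.0594), and leaving out E18.5 gave -0.22 (adjusted p = 0.0633). The adult difference of the median was 0.06 (95% interval -0.43 to 0.54, adjusted p = 0.908), and its sign depended on the probe set used.

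Sox4 had 8 probe sets, which fell into bright and dim ones. Of these, 5 fell, with slopes from -0.33 to -0.17 per day, while the other 3 were dim, at 3.82 to 4.76 on the embryonic arrays, and had no call. The brightest probe set stood at 11.70, 11.62, 11.46, 11.32, 11.08 and 10.86 over the embryonic days and at 9.38 in the adult. It fell at every step, with a slope of -0.17 (limma adjusted p = 0.00387) and an adult difference of -1.54 (adjusted p = 0.000263 in the fit over probe sets), and it was the only one of the 8 called lower in the adult. The next brightest, which went from 8.64 on the first array to 6.96 on the last embryonic one and 6.06 in the adult, had an adult difference of -0.90, under the 2-fold limit. With the brightest probe set of every gene in place of the median, 3 SOX genes were lower in the adult, Sox4, Sox11 and Sox7, against 5.52% of all genes.

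Sox12, the remaining SoxC gene, whose product is held to be the weaker activator of the group, stood at 6.69, 6.47, 6.47, 6.78, 6.36 and 6.22 over the embryonic days and at 6.05 in the adult. The highest value was that of E16.5 and the lowest that of the adult. Neither the slope of -0.07 (95% interval -0.16 to 0.02, limma adjusted p = 0.277) nor the adult difference of -0.28 (95% interval -0.74 to 0.18, adjusted p = 0.404) was called. None of its 3 probe sets was called, and the brightest was 7.55 on the first array and 6.63 on the adult one. A miss of the threshold does not show that Sox12 kept its level, and the interval of the slope includes a loss of 0.16 per day.

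**Figure D3:**
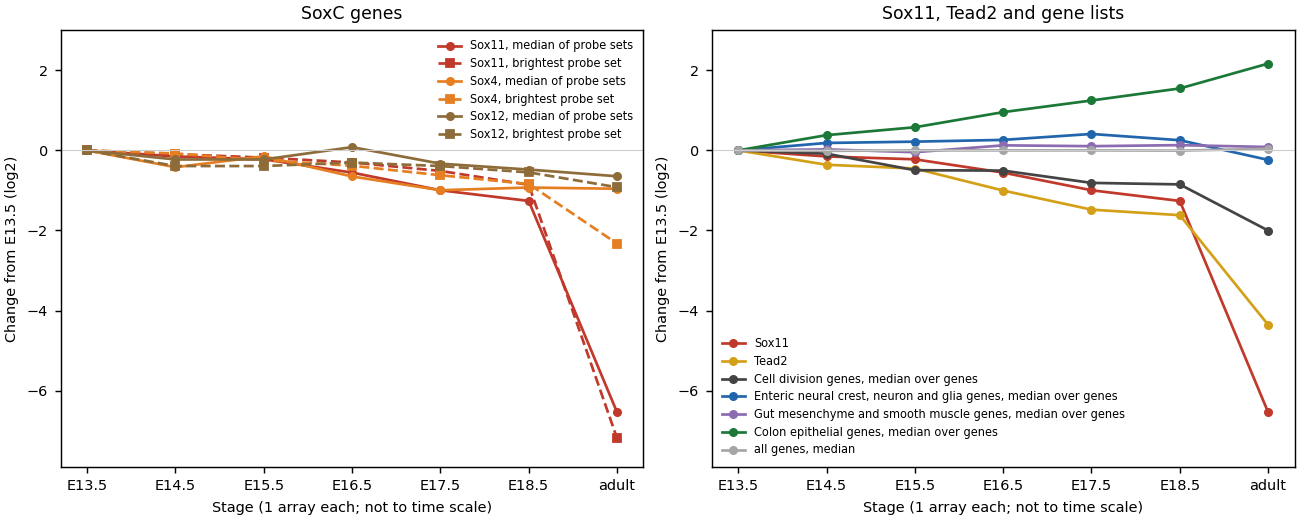
Change from the E13.5 array (log2) at each stage, with 1 array per stage. On the left, the SoxC genes are drawn by the median of their probe sets (solid) and by the brightest one (dashed), and in the adult Sox4 stood at -0.96 by the median and -2.33 by the brightest. On the right, Sox11 (-6.54 in the adult) stands beside Tead2 (-4.35) and the medians of 4 gene lists, of which cell division genes stood at -2.0 and colon epithelial genes at 2.17.

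The sequences before the starts of the SoxC genes are shown because these genes differed in the measurements above while belonging to 1 group. RefSeq promoter windows (build GRCm38.p6) were given for 7 of the 10 SOX genes, and the 250 bases before the start are printed 5′ to 3′ on the strand of the gene. The capitals mark the CCAAT box, read as CCAAT or, on the other strand, ATTGG. The windows lie at chr12:27342719-27342968 for Sox11, chr13:28953700-28953949 for Sox4 and chr2:152398047-152398296 for Sox12, each on the minus strand.
Sox11: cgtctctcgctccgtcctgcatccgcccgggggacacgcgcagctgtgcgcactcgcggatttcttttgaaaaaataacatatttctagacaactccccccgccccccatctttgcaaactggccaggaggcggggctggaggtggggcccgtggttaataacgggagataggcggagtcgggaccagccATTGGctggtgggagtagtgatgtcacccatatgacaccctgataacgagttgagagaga
Sox4: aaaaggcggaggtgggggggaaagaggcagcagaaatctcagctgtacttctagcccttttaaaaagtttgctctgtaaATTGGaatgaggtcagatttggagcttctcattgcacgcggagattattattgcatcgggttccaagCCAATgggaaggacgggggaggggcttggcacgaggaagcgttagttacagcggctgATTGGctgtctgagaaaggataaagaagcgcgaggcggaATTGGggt
Sox12: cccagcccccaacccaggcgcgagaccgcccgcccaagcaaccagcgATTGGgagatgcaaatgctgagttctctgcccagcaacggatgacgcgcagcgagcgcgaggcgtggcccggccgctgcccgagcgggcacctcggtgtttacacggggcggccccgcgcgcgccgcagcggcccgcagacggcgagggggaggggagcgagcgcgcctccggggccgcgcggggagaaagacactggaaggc
Sox4 held 4 CCAAT boxes, Sox11 held 1 and Sox12 held 1, where 33.8% of 32851 windows of the same length held at least 1. The GC box, GGGCGG on either strand, was found 2 times in Sox11, 3 times in Sox12 and 0 times in Sox4, and 32.7% of windows held it. The TATA box, TATAAA on either strand, stood in 12.4% of windows and in none of the 3. The core letters bound by SOX proteins, taken as AACAAT or as the longer AACAAAG on either strand, stood in 13.8% of windows and in none of the 3. The GC content was 58.0% for Sox11, 50.8% for Sox4 and 74.4% for Sox12, with a median of 52.4% over all windows. The motifs were counted independently of each other, a match is a description of letters, and a missing match says only that these letters are not in the window.

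Sox2, the SoxB1 gene of neural progenitors and of the foregut, had a single probe set and a course of its own. It stood at 6.70, 7.07, 7.83, 6.70, 6.18 and 6.20 over the embryonic days and at 5.43 in the adult. The E15.5 array was the highest and the adult array the lowest. E15.5 was 0.75 above E14.5 and 1.12 above E16.5. A margin of at least 0.5 over both neighbours, a limit chosen after the values were seen, was found for 107 genes (0.588% of all), among them no other of the 10 SOX genes, and 15 genes had a larger margin. The step from E15.5 to E16.5 was the only embryonic one in which any of the 10 changed 2-fold, and 23 genes in all were 2-fold lower in it. This maximum rests on 1 array and 1 probe set and has no test. On that array, the 5′ minus 3′ differences of Gapdh and Actb were also the lowest of the embryonic ones (-1.59 and -2.14), and their part in the Sox2 value was not tested.

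A line describes such a course poorly. The slope of Sox2 was -0.18 per day with a 95% interval of -0.43 to 0.07 (limma adjusted p = 0.316), and the adult difference was -0.90 with an interval of -2.20 to 0.41 (adjusted p = 0.339). The interval includes no change and also a loss past 2-fold. Sox2ot, the noncoding transcript in whose intron Sox2 lies, is named here because signals of overlapping genes may not be separable, and it was 5.40, 5.60, 5.68, 5.78, 5.16 and 4.88 over the embryonic days and 4.94 in the adult. Its highest value was at E16.5 and not at E15.5. The median over 16 foregut and stomach genes was 5.26 at E15.5, with 5.08 on the array before and 5.15 on the one after. None of these 16 was called in either comparison in limma. Of the 16, 7 were among the dimmest 25% of genes by mean level, which limits what their median can show. At an unadjusted p under 0.05, 0 had a slope and 1 an adult difference, Gkn3, named after its value was seen, at 0.25 and so under the 2-fold limit.

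Sox13, the SoxD gene also known as a regulator in lymphocytes, stood at 7.03, 6.89, 7.04, 7.09, 7.11 and 7.29 over the embryonic days and at 7.77 in the adult, by 1 probe set. From E14.5 on, each stage was higher than the one before. The adult difference of 0.55 (SE 0.11, 95% interval 0.28 to 0.82) had a limma adjusted p of 0.018, but it was under the 2-fold limit and so not called. Without 1 embryonic array the adjusted p ran from 0.0194 to 0.0584. The embryonic slope was 0.06 per day (SE 0.02, adjusted p = 0.124), and it was called as rising only when a line was laid over the order of all 7 stages (0.11 per stage, adjusted p = 0.0392).

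Sox5 and Sox6, the SoxD pair best known from cartilage and from glial and muscle cells, had no call in either comparison. Sox5 stood at 5.10, 5.35, 5.20, 5.40, 5.14 and 4.94 over the embryonic days and at 5.27 in the adult. Sox6 stood at 5.44, 5.53, 5.09, 5.24, 5.30 and 5.53 and at 5.18. Sox5 was lowest on the E18.5 array, and Sox6 was lowest at E15.5 and higher at each of the 3 embryonic stages after it. The slope was -0.04 for Sox5 (95% interval -0.12 to 0.05, limma adjusted p = 0.588) and -0.0025 for Sox6 (95% interval -0.10 to 0.09, adjusted p = 0.979). The adult differences were 0.17 for Sox5 (adjusted p = 0.627) and -0.17 for Sox6 (adjusted p = 0.651), and their signs turned in some of the alternative fits. None of the 7 probe sets of Sox5 or of the 4 of Sox6 was called. In Sox6, the 2 brightest probe sets had their lowest embryonic value at E15.5 (5.95 and 4.88). The next brightest was 5.31 there and lowest at E17.5 (5.11), and the dimmest was 4.70 at E15.5 and 4.71 at E13.5. This low value rests on 1 array, the one with the lowest embryonic Gapdh and Actb control differences, and was not tested.

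Sox7, a SoxF gene of early vascular endothelium, was the other SOX gene called lower in the adult. Its median stood at 6.54, 6.50, 6.38, 6.52, 6.38 and 6.45 over the embryonic days and at 5.11 in the adult. The embryonic levels lay between 6.38 and 6.54 with no order in time, and the adult lay below all of them. The adult difference was -1.30 (SE 0.11, 95% interval -1.56 to -1.05, limma adjusted p = 0.000408), a 2.47-fold lower level, and 364 genes had a lower one. The slope was -0.02 per day (adjusted p = 0.618). The median joined a bright and a dim probe set. The bright one stood at 8.69, 8.58, 8.32, 8.59, 8.46 and 8.46 and at 5.79 in the adult, a difference of -2.64 (adjusted p = 0.000127 in the fit over probe sets). The dim one lay at 4.31 to 4.45 in the embryo and 4.43 in the adult, so the size of the change in Sox7 depends on the probe set.

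Sox17, a SoxF gene of endoderm and arterial endothelium, stood at 5.81, 5.60, 5.86, 5.90, 5.84 and 5.93 and at 5.60 in the adult. The adult value equalled that of E14.5 at this rounding and no stage stood apart. The adult difference was -0.32 (95% interval -0.63 to -0.01, limma adjusted p = 0.144) and the slope 0.04 (adjusted p = 0.377). Of its 2 probe sets, the brighter one ranged from 6.62 to 7.17 in the embryo and was 6.51 in the adult (-0.61, adjusted p = 0.066), and the other stayed between 4.58 and 4.80. Sox18, the SoxF gene needed for lymphatic vessels, stood at 4.88, 4.92, 4.81, 4.88, 4.79 and 4.88 and at 4.85 in the adult. This gene was among the dimmest 25% by mean level, and its single probe set gave a slope of -0.01 (adjusted p = 0.821) and an adult difference of 0.01 (adjusted p = 0.958), so at this signal a change could not be told from none.

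**Figure D4:**
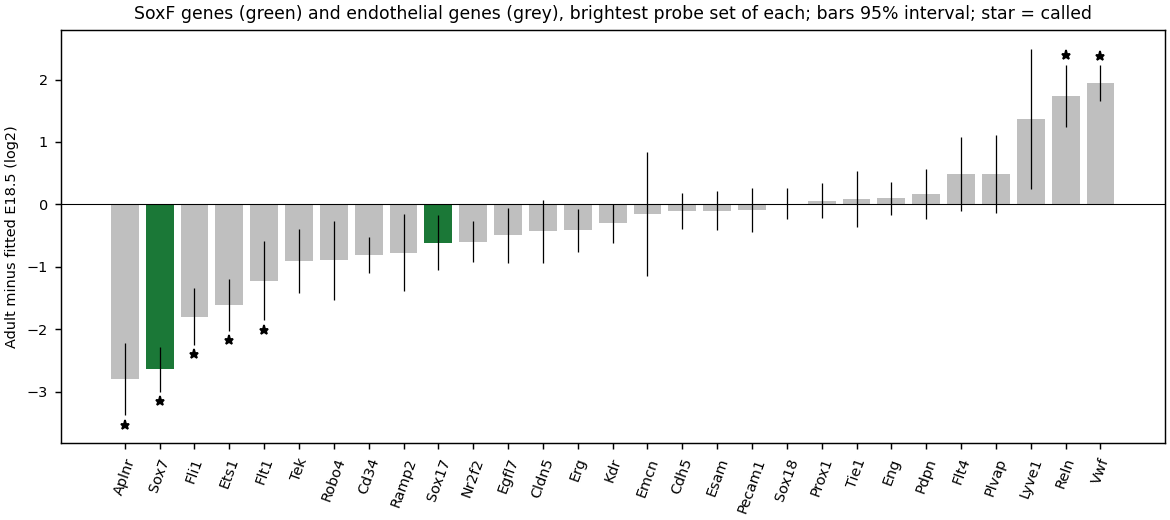
Adult level minus the level fitted at E18.5 (log2), by the brightest probe set of each gene, for the SoxF genes (green) and for measured blood and lymphatic endothelial genes (grey), with 95% intervals from limma and a star on called genes. Aplnr stood at -2.80 and Sox7 at -2.64, while Sox18, at 0.01, and Pecam1 lay near 0.

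The 20 blood endothelial genes were read beside Sox7, and their part in its level was not tested. By the median of probe sets, 2 were lower in the adult, Aplnr, the apelin receptor, at -1.83 (limma adjusted p = 9.68e-05) and Fli1, an ETS factor of endothelial and blood cells, at -1.02 (adjusted p = 0.00293). Vwf, the von Willebrand factor, was higher by 1.95, and 17 had no call. Over the embryonic days 2 fell and 3 rose, against 10.4% and 9.12% of all genes. By the brightest probe set 4 were lower, Aplnr, Fli1, Ets1 and Flt1, against 5.52% of all genes. Pecam1, an endothelial adhesion molecule, lay between 5.30 and 5.67 on the embryonic arrays and at 5.30 in the adult, and the adult difference of Cdh5, the endothelial cadherin, was -0.25 (adjusted p = 0.177). Both genes lay below the median level over all genes on every array. At an unadjusted p under 0.05 and with no 2-fold limit, 8 of the 20 were lower in the adult and 1 was higher. Over all 18194 genes these counts were 2439 and 3193. Among the 8 were Tek at -0.90 (limma adjusted p = 0.0271) and Cd34 at -0.81 (adjusted p = 0.00369), named after their values were seen. The list median of the adult difference was -0.23. Of 6 lymphatic endothelial genes 1 fell, 1 rose and none was called in the adult by limma. In the adult 2 had an unadjusted p under 0.05, 0 of them past the 2-fold limit. Of these, Reln, a secreted glycoprotein, was at 0.88 with an adjusted p of 0.00448. By the brightest probe set 2 lymphatic genes fell, 2 rose and Reln was higher in the adult by 1.74 (adjusted p = 0.00183). Prox1, the lymphatic master factor and a described target of SOX18, had a dim median, with 4.16 at E13.5 and 4.27 in the adult and no call. Its brightest probe set was 6.91 at E13.5 and 6.57 in the adult, and fell over the embryonic days at a slope of -0.08 (adjusted p = 0.0456).

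Of 24 measured genes described as targets or partners of SOX proteins, 3 fell, 0 rose (1 at an unadjusted p under 0.05) and 3 were lower in the adult. Over all genes, 10.4% fell, 9.12% rose and 3.26% were lower in the adult. The counts are a description of chosen genes, and the genes named next are those that were called. Tead2, a Hippo pathway factor described as a SoxC target, stood at 9.77 on the first embryonic array, 8.15 on the last and 5.42 on the adult array, with a slope of -0.34 (limma adjusted p = 0.00116) and an adult difference of -2.68 (adjusted p = 8.96e-05). Tubb3, the neuronal tubulin, had an adult difference of -2.0 (adjusted p = 0.0255), and its level was 6.88 at E13.5 and 7.78 at E18.5. Stmn1, a tubulin-binding protein of dividing and neural cells, fell from 12.21 to 11.77 and was lower by 1.62 in the adult. Vcam1, the vascular adhesion molecule, fell from 7.23 to 6.28. By the brightest probe set of every gene, 4 of the 24 fell and 4 were lower in the adult, against 10.6% and 5.52% of all genes. Stmn1 lost both calls there, with a slope of -0.04 (limma adjusted p = 0.295) and an adult difference of -0.94. Vcam1 and Mef2c were called lower in the adult only there. With centred arrays 5 of the 24 fell. No target was tested for binding here.

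Among 10 SOX genes outside the set, Sox8 was the only one called, falling from 5.64 to 4.78 over the embryonic days at a slope of -0.16 (limma adjusted p = 0.00331). None was called in the adult by the median. At an unadjusted p under 0.05, 1 had an adult difference, Sox8, at 0.25, under the 2-fold limit. Sox9, the SOX factor of crypt progenitors, had a median of 5.05 at E13.5 and 5.26 in the adult with no call. Its brightest probe set was far above this median, at 8.73 at E13.5 and 9.63 in the adult, also with no call. Sox10, the neural crest and glial SOX factor, had no call by the median (6.50 at E13.5, 6.85 in the adult), whereas its brightest probe set was lower in the adult by -1.32 (adjusted p = 0.0329).

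Cell type and process lists were read beside the SOX levels, and the part of cell composition in those levels was not tested. Over all genes, 10.4% fell, 9.12% rose, 3.26% were lower in the adult and 4.23% were higher. Of 23 cell division genes 20 fell and 8 were lower in the adult, with a median slope of -0.18 and a median adult difference of -0.84. Of 21 genes listed as enteric neural 1 fell and 7 rose, and 8 were lower in the adult, with Fabp7, a glial fatty acid binding protein, at -4.65. Chga, 1 of the 7 that rose, was the only one higher in the adult, by 2.09. It is a granin that enteroendocrine cells also make, so it does not tell neural cells from epithelium. Of 18 mesenchyme and smooth muscle genes 4 fell, 6 rose and 5 were lower in the adult. All 17 measured colon epithelial genes rose and 3 were higher in the adult. Of 13 cartilage genes 2 fell, Col9a1 and Col11a1, and none was called in the adult by limma. At an unadjusted p under 0.05, 1 had an adult difference, Hapln1, a cartilage link protein named after its value was seen, at -0.54. By its brightest probe set Hapln1 was lower by -2.18 (adjusted p = 0.00959). None of 10 skeletal muscle genes was called in limma in either comparison, and at an unadjusted p under 0.05 there were 2 rising slopes and 0 adult differences. Of 10 genes of attached fat, pancreas and liver 3 rose and 3 were higher in the adult, the pancreatic enzymes Cela1 by 3.97 and Cpa1 by 1.55 and the fat cell hormone Adipoq by 3.07.

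Development-related genes were defined by rank correlation with the order of the 7 stages, which had to exceed 0.9 in size (Spearman), and, among genes that passed, by a place in the top 1000 for median absolute deviation. Sox11 and Sox13 passed the correlation, Sox11 as a falling gene (7.73% of all genes) and Sox13 as a rising one (6.5%). Sox11 alone of the 10 also passed the deviation, in the falling class of 2.42% of genes, the rising class holding 3.08%. Sox11 left the class when the brightest probe set of every gene was used and the deviations were ranked anew. Sox4 joined it when each array was centred on its median, and took the place of Sox11 without the E17.5 array.

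The genes whose course over the 7 arrays was most like a SOX gene were found by Pearson correlation, as a description, since stages share a trend and the adult array carries much of it. For Sox11 they were Ndn, Cenpt and Tmem255a (r = 0.999, 0.998 and 0.998), and 1177 genes had r above 0.9. For Sox7 they were Tubb2a, Hnrnpa0 and Fbn2 (r = 0.999, 0.997 and 0.997), with 810 genes above 0.9. For Sox13 they were Alg5, Cc2d1a and Rbp2, with 1679 genes above 0.9. Sox4 was most like Cdc37, Kantr and Klhl4, and Sox2 most like Tfap4, Hnrnpl and Vgll4, with 305 and 312 genes above 0.9. The 5 remaining SOX genes each had 9 to 29 genes above 0.9. Among the 10, Sox11 and Sox7 were the most alike (r = 0.983 over 7 arrays), and Sox11 and Sox13 the most opposed (r = -0.963). Sox11 and Sox7 were both 2-fold lower on the adult array than at E18.5, but their embryonic courses differed. The slope was -0.26 per day for Sox11 and -0.02, with no call, for Sox7.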

How the data were processed

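Total RNA of colon was measured on Affymetrix whole-genome mouse expression arrays, 7 in all, with 1 for each embryonic stage and 1 adult. The authors deposited log2 values of all 45101 probe sets, and the submitters' processing notes name RMA, affy 1.22.1 and R 2.9.2. RMA corrects background, gives arrays a common distribution and summarizes the probes of a set, which hides any shift common to most genes; dim values are compressed, and 46.1% of the probe sets (14 of the 35 SOX ones) carry equal values on some arrays. Precision is limited by the number of arrays. No read depth applies.

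From these values, probe sets with several gene names (932) or without one (9211) were dropped, and levels of 18194 genes were formed as the median of their remaining probe sets, of whose 18195 gene identifiers 18033 matched a table of GRCm38.p6 genes. limma 3.58.1 in R 4.3.3 (lmFit, eBayes) fitted the embryonic slope and an adult term, with Benjamini-Hochberg adjustment over all genes or all 34958 single-gene probe sets. The scripts were tested on simulated data, with 50 genes changed at each size, 200 of 18194 in all, and the rest flat. In the real data 10.4% of genes fell and 9.12% rose, so the shares recovered need not hold there. Of slopes of 0.2 per day 54% were called, and of slopes of 0.5 per day 92%. Of adult differences of 1.5 on the log2 scale 70% were called, and of those of 3 98%. A slope near 0.2 per day can thus be missed. Alternatives were the brightest probe set by mean, a filter on the dimmest 25% of genes, centred arrays, trend and robust eBayes, a line over 7 stages, the mean of the 2 last embryonic arrays as reference, the standard deviation as the measure of deviation, and each array left out. The SOX genes and the 12 gene lists (194 genes, 179 measured) were chosen with earlier results of these data known. Named genes were the SOX genes, the 3 genes most like each, other SOX genes that were called with Sox9 and Sox10, and, from each list, up to 3 called genes per comparison and fixed markers. Sequences came from RefSeq promoter windows, of which the last 50 bases, after the start, were left out. Python 3.11.15, pandas 2.3.3, numpy 2.4.6 and matplotlib 3.10.9 were used.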

Additional observations from a re-analysis of the deposited data

How the results depend on the processing

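The number of SOX genes lower in the adult was 2 in every fit without 1 embryonic array. The number falling in the embryo ran from 1 to 2 over those fits and was 1 when E13.5, E17.5 or E18.5 was left out, where Sox4 lost its call with a slope of -0.22 to -0.17 per day. A line over the order of all 7 stages gave 1 falling SOX gene, 1 rising (Sox13) and 1 rising probe set, and the slope of Sox11 was -0.81 per stage with a limma adjusted p of 0.0656. Over the fits without 1 array, 8 to 11 probe sets fell. The count of falling development-related SOX genes was 0 with the highest probe set and 2 with centred arrays, and it was 1 without each array in turn, although that gene was Sox4 in place of Sox11 without E17.5. With the highest probe set, the adult difference of Sox4 was -1.54 and was called, that of Sox5 was -0.0533, and the slope of Sox6 was 0.000247. The other changes of sign concerned uncalled values near 0. Over the fits without 1 array, the adult differences ran from -0.0401 to 0.151 for Sox4, from -0.00625 to 0.236 for Sox5, from -0.209 to 0.0257 for Sox6 and from -0.0156 to 0.0591 for Sox18. The slopes ran from -0.0875 to 0.0118 for Sox5 and from -0.0571 to 0.0212 for Sox6. The slope of Sox17 was -0.000516 over 7 stages, and the adult difference of Sox18 was -0.0224 with centred arrays. The causes were not tested. No paired analysis was possible because each stage had 1 array. Among the single SOX values, 102 of the alternative adult differences kept their direction and their side of the threshold and 7 changed sign. Of the slopes 97 kept both, 7 changed sign, 4 lost a call and 1 gained one. Only 2 of the 10 genes were called in each comparison, so most of the values that kept both were uncalled ones that stayed uncalled. Sox18 was among the dimmest 25% of genes, which limits what can be seen of it.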
